A study of Mus musculus with 4 samples.

Results

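S100 proteins are small calcium-binding proteins of the EF-hand family, and 10 of their genes were followed across the 4 arrays of a study of mouse pancreatic islets. They are S100g, S100z, S100b, S100a1, S100a4, S100a6, S100a8, S100a9, S100a10 and S100a11. The members were chosen by name, taking every array probe that carries the name of one of these genes, and the family was selected on measured values, namely the differences of S100g and S100z, which were among the largest of the whole array. These 10 genes are 10 of 22328 genes on the array and are read by 13 of 55681 probes, with 2 probes each for S100g, S100a1 and S100a4. Each of the 13 probes was well above background on every array, a call that the scanner software makes for each spot.

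Each array held total RNA from islets of 24-week-old C57BL/6 mice that had been freed with collagenase, separated on a gradient and picked by hand. The female Tg array holds islets of transgenic females. The male Tg E2 array holds islets of transgenic males 6 weeks after an E2 implant, E2 being the usual short name of estradiol. The male Tg array holds islets of transgenic males that the labels call diabetic and name without an implant, and the male WT array islets of wild-type males. The transgene and the promoter that drives it are not named in the labels used here, nor is the number of mice behind an array. Female Tg was set against male arrays only. Against male WT, transgene, sex and any diabetes cannot be told apart there, and against male Tg, sex and diabetes cannot. In male Tg over male WT, transgene and diabetes cannot be told apart either. The same holds for implant and any difference in diabetes in male Tg E2 over male Tg. In male Tg E2 over male WT it holds for implant and transgene. All 4 arrays lay on 1 slide.

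With 1 array per group there is no replicate, every difference is one between 2 arrays and not between 2 conditions, and no p-value is given. A level is the log2 of the background-corrected intensity of a probe minus the 75th percentile of that array, so that 0 is the level of that percentile. The standard error (SE) comes from the scanner software's error model and covers the array measurement, not the spread between mice. Levels are called within error when they differ by less than 2 SE. A gene is called higher or lower where it is at least 2-fold apart, a log2 difference of at least 1 in size. The 5 comparisons share arrays with each other, and their values are given side by side for that reason only.

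S100 proteins mostly form dimers. Calcium binding opens a surface on them that grips a partner protein, and so the family passes calcium signals on to the cytoskeleton, to membranes and to enzymes, while some members are also released and act on receptors of neighbouring cells. S100g, known as calbindin, is an exception that works as a single molecule and buffers calcium in absorbing epithelia. In a pancreas, members of the family are known from fibroblasts, nerve sheath cells, duct epithelium and white blood cells as well as from endocrine cells. In a bulk sample of islets, fewer cells of a type and less RNA per cell cannot be told apart.

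A calcium-binding loop of the EF-hand kind, which S100 proteins share with other EF-hand proteins, lies inside the probes for S100a1 and S100a8. Their sequences are shown for that reason, in the strand of the transcript, with the 36 bases that encode the loop in capitals. The S100a1 probe lies at chr3:90315191-90315250 (mm9, minus strand) and the S100a8 probe at chr3:90473778-90473837 (mm9, plus strand).
S100a1: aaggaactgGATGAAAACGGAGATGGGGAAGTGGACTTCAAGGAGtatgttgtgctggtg
S100a8: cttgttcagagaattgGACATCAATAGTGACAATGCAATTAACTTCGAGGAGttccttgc
Both probes are 60 bases long, as were all probes of these genes. Probe positions refer to the mouse build mm9, as the scanner files give them, and exons were not assigned because no annotation of that build was used.

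S100g, the epithelial calcium buffer that vitamin D and, in the rodent uterus, estrogen are known to induce, had the widest range of the 10 genes. Its level was 1.08 on the female Tg array, 4.76 on the male Tg E2 array, 6.18 on the male Tg array and −3.74 on the male WT array. The corresponding intensities were 550, 8102, 14655 and 27.3. The 3 transgenic arrays were all far above the wild-type one, the 2 male transgenic arrays were highest, and no 2 neighbours in this order were within error.

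S100g was 9.92 ± 0.32 log2 (SE), or 967-fold, higher on the male Tg array than on the male WT array, and no other measured gene of 14386 had a larger difference. The male Tg E2 array was 8.50 ± 0.32 log2 above male WT (361-fold) and the female Tg array 4.81 ± 0.32 log2 (28.1-fold), and in each of these comparisons 1 gene was higher still. Against male Tg, S100g differed by −1.42 ± 0.20 log2 on the male Tg E2 array (2.68-fold lower) and by −5.10 ± 0.20 log2 on the female Tg array (34.4-fold lower), where 36 genes were lower still. These differences are those the family was selected on and are given as a description. The male WT signal is low, and the fold over it depends on how background is removed. After background modelling with normexp the male Tg difference from male WT was 7.80 log2 with percentile scaling and 7.47 with quantile normalization.

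The second S100g probe gave 4.66 log2 for female Tg, 8.43 for male Tg E2 and 9.76 for male Tg when each was set against male WT. Against male Tg it gave −5.10 for female Tg and −1.33 for male Tg E2. Both probes lie on chromosome X (mm9, minus strand), at chrX:159399938-159399997 and chrX:159399924-159399983, and 46 of their bases are the same, so that they are not independent readings. The first 30 shared bases, chrX:159399954-159399983, are shown because the whole S100g result rests on this stretch. The capitals mark AATAAA, the letters of the polyadenylation signal.
S100g: atacatactgttAATAAAgcaagttcggag
A match of these letters does not show that the signal is used, and the place of the probes in the transcript was not checked.

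The S100g promoter is shown because the gene is known for steroid and vitamin D control in other tissues. RefSeq gives it on build GRCm38.p6 at chrX:162964570-162964849, minus strand, and the 280 bases printed run from 250 before the annotated start to 30 after it. Capitals mark the letters TATAAA, which begin at the start itself, and the nuclear receptor half-site AGGTCA, found 220 bases before the start and, as its reverse complement TGACCT, a second time nearer to it.
S100g: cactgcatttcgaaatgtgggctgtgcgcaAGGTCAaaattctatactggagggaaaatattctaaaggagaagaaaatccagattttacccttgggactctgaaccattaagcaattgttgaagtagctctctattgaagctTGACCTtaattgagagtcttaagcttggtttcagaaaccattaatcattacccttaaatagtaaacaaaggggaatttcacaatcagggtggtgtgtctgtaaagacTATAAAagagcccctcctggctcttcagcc
Searched on both strands of 32851 RefSeq promoter windows of 300 bases, TATAAA was present in 13.6% and AGGTCA in 16.3%, with 1.81% holding AGGTCA at least 2 times. Of the 9 members with a window in the table, 4 held TATAAA (S100a4, S100a8, S100a9 and S100g) and 3 held AGGTCA (S100a11, S100a4 and S100g). The full palindrome GGTCANNNTGACC, which overlaps the half-site and is the classical estrogen response element, was in 0.07% of windows and in 0 of the 9. A match of letters is not a measured binding site.

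S100z, a less studied member of the family, had another order of the arrays. Its level was 0.18 on the female Tg array, 2.98 on the male Tg E2 array, −0.16 on the male Tg array and 2.12 on the male WT array. The intensities were 296, 2366, 181 and 1585. The implanted males and the wild-type males were the high arrays, and both unimplanted transgenic arrays, female and male, were low and within error of each other.

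The male Tg E2 array exceeded the male Tg array by 3.14 ± 0.21 log2 (SE) for S100z, an 8.84-fold difference, and 3 of 14618 measured genes were higher still. The female Tg array differed from male Tg by 0.34 ± 0.21 log2. Against male WT the differences were −2.28 ± 0.21 log2 for male Tg (4.86-fold lower), −1.94 ± 0.21 for female Tg (3.83-fold lower) and 0.86 ± 0.20 for male Tg E2 (1.82-fold higher). The gene was thus at least 2-fold lower in both unimplanted transgenic groups and less than 2-fold higher in the implanted one. These values too were among those the family was selected on. S100z has 1 probe, at chr13:96247256-96247315 (mm9, minus strand), shown because no second probe bears on its values. Its capitals mark the stop codon that ends the open reading frame.
S100z: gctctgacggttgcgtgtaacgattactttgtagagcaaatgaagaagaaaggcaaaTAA

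**Figure D1:**
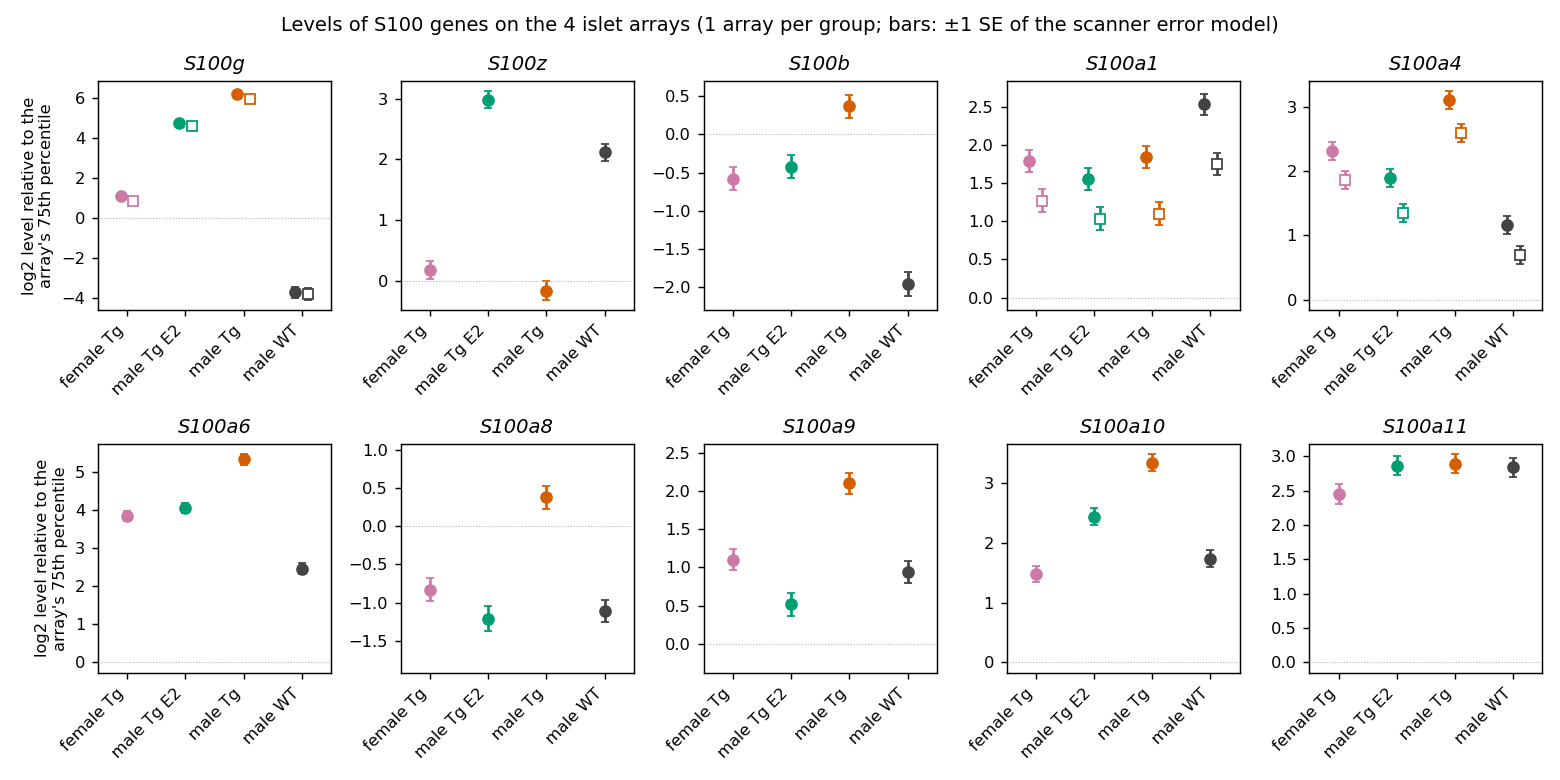
Level of each of the 10 S100 genes (log2 relative to the 75th percentile of the array, vertical axis, scaled per panel) on the female Tg, male Tg E2, male Tg and male WT arrays. Bars are 1 SE of the scanner error model, filled circles the probe with the highest mean level and open squares a second probe where there is one. S100g spans 9.92 log2 and S100a11 0.44.

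S100a8 and S100a9 encode the subunits of calprotectin, which neutrophils and monocytes store and release and which signals through TLR4 and RAGE. S100a8 stood at −0.83 on the female Tg array, −1.21 on the male Tg E2 array, 0.38 on the male Tg array and −1.11 on the male WT array. S100a9 stood at 1.10, 0.52, 2.10 and 0.94 in the same order of arrays. For both genes male Tg was the high array and the other arrays lay close together, with female Tg and male WT within error.

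S100a8 was 1.49 ± 0.21 log2 (SE) higher on male Tg than on male WT (2.81-fold) and S100a9 1.16 ± 0.20 (2.23-fold). Both differed by −1.58 log2 between male Tg E2 and male Tg. Between female Tg and male Tg the difference was −1.21 ± 0.21 log2 for S100a8, and S100a9 was 2-fold lower, at the threshold itself. Against male WT, neither gene reached 2-fold on male Tg E2 (−0.09 and −0.42) or on female Tg (0.28 and 0.16). With normexp and percentile scaling the female Tg difference from male Tg was −0.88 for S100a8 and −0.89 for S100a9, so that both calls were lost. S100a9 also missed 2-fold in male Tg over male WT under that setting (0.97) and with median scaling (0.83).

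The neutrophil marker list is given beside these genes. Of its 12 genes, 6 were well above background on female Tg, 6 on male Tg E2, 8 on male Tg and 6 on male WT, and Cxcr2, Ngp, Mmp8 and Mmp9 were so on no array. The summed level of the list, in multiples of the 75th percentile, was 93.5, 116, 117 and 106 in the same order, almost all of it from Csf3r, whose log2 level lay between 6.50 and 6.79. Myeloperoxidase (Mpo) was at least 20.3-fold higher on male Tg than on male WT and differed by −3.76 log2 between male Tg E2 and male Tg. A fold written with "at least" is a lower bound, given where only 1 of the arrays had a signal well above background. Of 6 list genes measured in male Tg over male WT, 3 were higher and 0 lower, and Lcn2 (1.84), Camp (1.24) and Ly6g (1.13) were the 3. Of 6 measured in male Tg E2 over male Tg, 1 was higher (Lcn2, 1.39), 1 lower (Mpo) and 4 between, with a median of 0.07 where S100a8 and S100a9 were at −1.58. Ltf and Retnlg were well above background on male Tg but not on male Tg E2, so that this median leaves them out. In female Tg over male Tg, 2 of 6 measured list genes were lower and 0 higher (median −0.45), where S100a8 and S100a9 were lower too. The macrophage markers, 10 of 10 measured, had 5 higher and 0 lower in male Tg over male WT (median 0.96), and 0 past 2-fold in male Tg E2 over male Tg (median 0.08). They had 5 higher in male Tg E2 over male WT (median 1.13) and 4 in female Tg over male WT (median 0.79), where S100a8 and S100a9 were short of 2-fold. In female Tg over male Tg, 2 of the 10 macrophage markers were lower and 0 higher (median −0.07). The part of such cells in the S100a8 and S100a9 differences was not tested.

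S100a6 (calcyclin) and S100a4 are cytosolic members, common in fibroblasts, that bind annexins and, for S100a4, nonmuscle myosin. S100a6 had levels of 3.84 on female Tg, 4.05 on male Tg E2, 5.32 on male Tg and 2.46 on male WT. S100a4 had 2.31, 1.90, 3.10 and 1.17 in the same order. Male WT was the low array and male Tg the high array for both, with the other transgenic arrays in between. For S100a6 female Tg and male Tg E2 were within error.

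Relative to male WT, S100a6 was higher by 2.86 ± 0.20 log2 on male Tg (7.25-fold), by 1.59 ± 0.20 on male Tg E2 (3.01-fold) and by 1.38 ± 0.20 on female Tg (2.60-fold). Relative to male Tg it differed by −1.27 ± 0.20 log2 on male Tg E2 and by −1.48 ± 0.20 on female Tg. S100a4 was 1.93 ± 0.20 log2 higher on male Tg than on male WT (3.80-fold). Its difference from male Tg was −1.20 ± 0.20 log2 on male Tg E2 and −0.79 ± 0.20 on female Tg. Over male WT, S100a4 stayed short of 2-fold on the male Tg E2 array (0.73) and passed it on female Tg (1.14, and 0.95 with median scaling). The second S100a4 probe gave 1.91 for male Tg against male WT. Its differences from male Tg were −1.25 on male Tg E2 and −0.74 on female Tg, so that the probes gave the same calls. S100a6 is read at chr3:90418160-90418219 and S100a4 at chr3:90409908-90409967 (mm9, plus strand).

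S100a10, the calcium-insensitive partner of annexin A2, and S100a11, which binds annexin A1, lie side by side at the far end of the chromosome 3 genes but differed in behaviour. S100a10 had levels of 1.48 on female Tg, 2.44 on male Tg E2, 3.35 on male Tg and 1.74 on male WT. S100a11 had 2.45, 2.86, 2.89 and 2.84 in the same order. S100a10 was high on the male Tg array, with female Tg and male WT within error, whereas the 3 male arrays were within error for S100a11.

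S100a10 was 1.62 ± 0.20 log2 (SE) higher on male Tg than on male WT (3.07-fold). Its difference from male Tg was −1.88 ± 0.20 log2 on female Tg (3.67-fold lower) and −0.91 ± 0.20 on male Tg E2, short of 2-fold. S100a11 differed by 0.05 ± 0.20 log2 between male Tg and male WT, and its sign turned under 2 of 9 other ways of processing the values, so no direction is given. Its difference of −0.44 ± 0.20 between female Tg and male Tg was also short of 2-fold.

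S100b, the classical marker of Schwann cells and astrocytes, had levels of −0.58 on female Tg, −0.42 on male Tg E2, 0.37 on male Tg and −1.96 on male WT. The wild-type array was the low one, and female Tg and male Tg E2 were within error. S100b was 2.33 ± 0.22 log2 (SE) higher on male Tg than on male WT (5.04-fold), 1.54 ± 0.22 on male Tg E2 (2.91-fold) and 1.38 ± 0.22 on female Tg (2.61-fold). With normexp and quantile normalization those last 2 values were 0.97 and 0.81, short of 2-fold. Relative to male Tg it differed by −0.79 ± 0.21 on male Tg E2 and by −0.95 ± 0.21 on female Tg, both short of 2-fold. Its probe lies at chr10:75723783-75723842 (mm9, plus strand).

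Of the 9 Schwann and nerve markers, 7 were measured in male Tg over male WT, of which 3 were higher and 0 lower. The 3 were Ngfr (2.56 log2), Gap43 (2.12) and Prx (1.04), while Sox10, the lineage factor, stood at 0.68. The summed level of the list was 23.6 on female Tg, 26.1 on male Tg E2, 23.2 on male Tg and 21.5 on male WT, and Cdh19 was well above background on no array. The part of nerve sheath cells in the S100b difference was not tested.

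S100a1, known in muscle for its action on calcium release and uptake, was the one member that was highest on the male WT array. Its level was 1.79 on female Tg, 1.55 on male Tg E2, 1.84 on male Tg and 2.53 on male WT. The 3 transgenic arrays were low and neighbouring ones within error of each other. Differences from male WT were −0.74 ± 0.20 log2 (SE) on female Tg, −0.98 ± 0.20 on male Tg E2 and −0.69 ± 0.20 on male Tg, none of them 2-fold, although median scaling took male Tg E2 to −1.17 and male Tg to −1.03. The second probe, the one printed above, gave −0.48, −0.72 and −0.65 in that order. Between female Tg and male Tg the probes gave −0.05 and 0.17, both within error of 0.

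**Figure D2:**
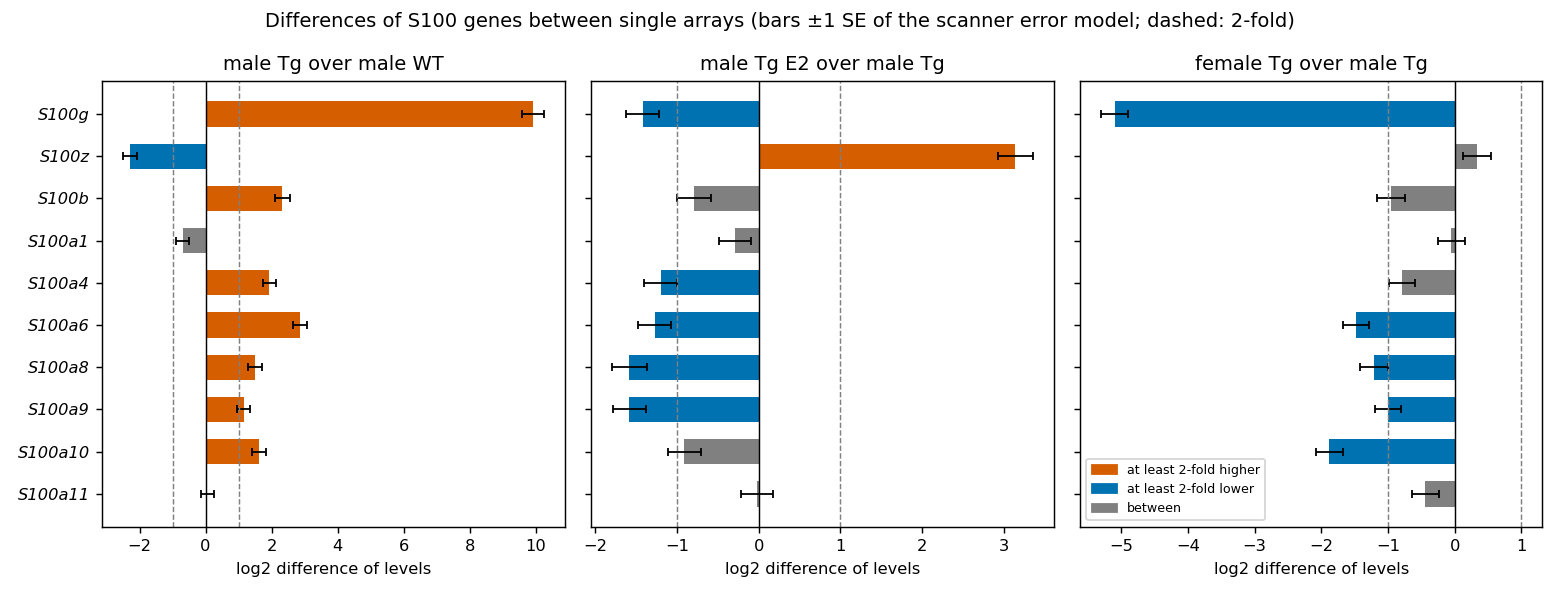
Log2 difference of the 10 S100 genes (horizontal axis) in 3 comparisons of single arrays, with bars of 1 SE of the scanner error model and dashed lines at 2-fold. For male Tg against male WT, 7 members lie beyond 2-fold on the right and 1 on the left, and S100z alone lies to the right for male Tg E2 against male Tg.

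The 10 S100 members, picked with earlier results of these data known, were mostly higher on the male Tg array than on the male WT array. Of the 10, 7 were at least 2-fold higher and 1 lower, beside 15.6% and 8.68% of 14386 measured genes, and the median difference was 1.56 log2 for the members and −0.21 for all genes. Among those 7 stands S100g and the 1 lower gene is S100z, both of them genes the family was selected on. The 8 other members split into 6 higher genes and 2 short of 2-fold, S100a1 and S100a11.

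In male Tg E2 over male Tg the members mostly lay below 0. There, 5 were at least 2-fold lower (S100g, S100a4, S100a6, S100a8 and S100a9) and S100z alone was higher, beside 8.01% lower and 2.54% higher of 14618 genes. The median was −1.05 log2 for the members and 0.12 for all genes. In female Tg over male Tg 5 members were lower (S100g, S100a6, S100a8, S100a9 and S100a10) and 0 higher, beside 8.57% lower and 3.51% higher of 14209 genes, with medians of −0.97 and 0.10.

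Set against male WT directly, fewer members were past 2-fold. On male Tg E2 they were 3 higher (S100g, S100b and S100a6) and 0 lower, beside 8.82% and 2.64% of 14587 genes, with a median of 0.72 log2 for the members and −0.09 for all genes. On female Tg they were 4 higher (S100g, S100b, S100a4 and S100a6) and 1 lower (S100z), beside 7.65% and 3.47% of 14217 genes, with medians of 0.22 and −0.12. Differences short of 2-fold turned sign under other processing for S100a8 and S100a11 on male Tg E2 and for S100a9 on female Tg, so they are given no direction.

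**Figure D3:**
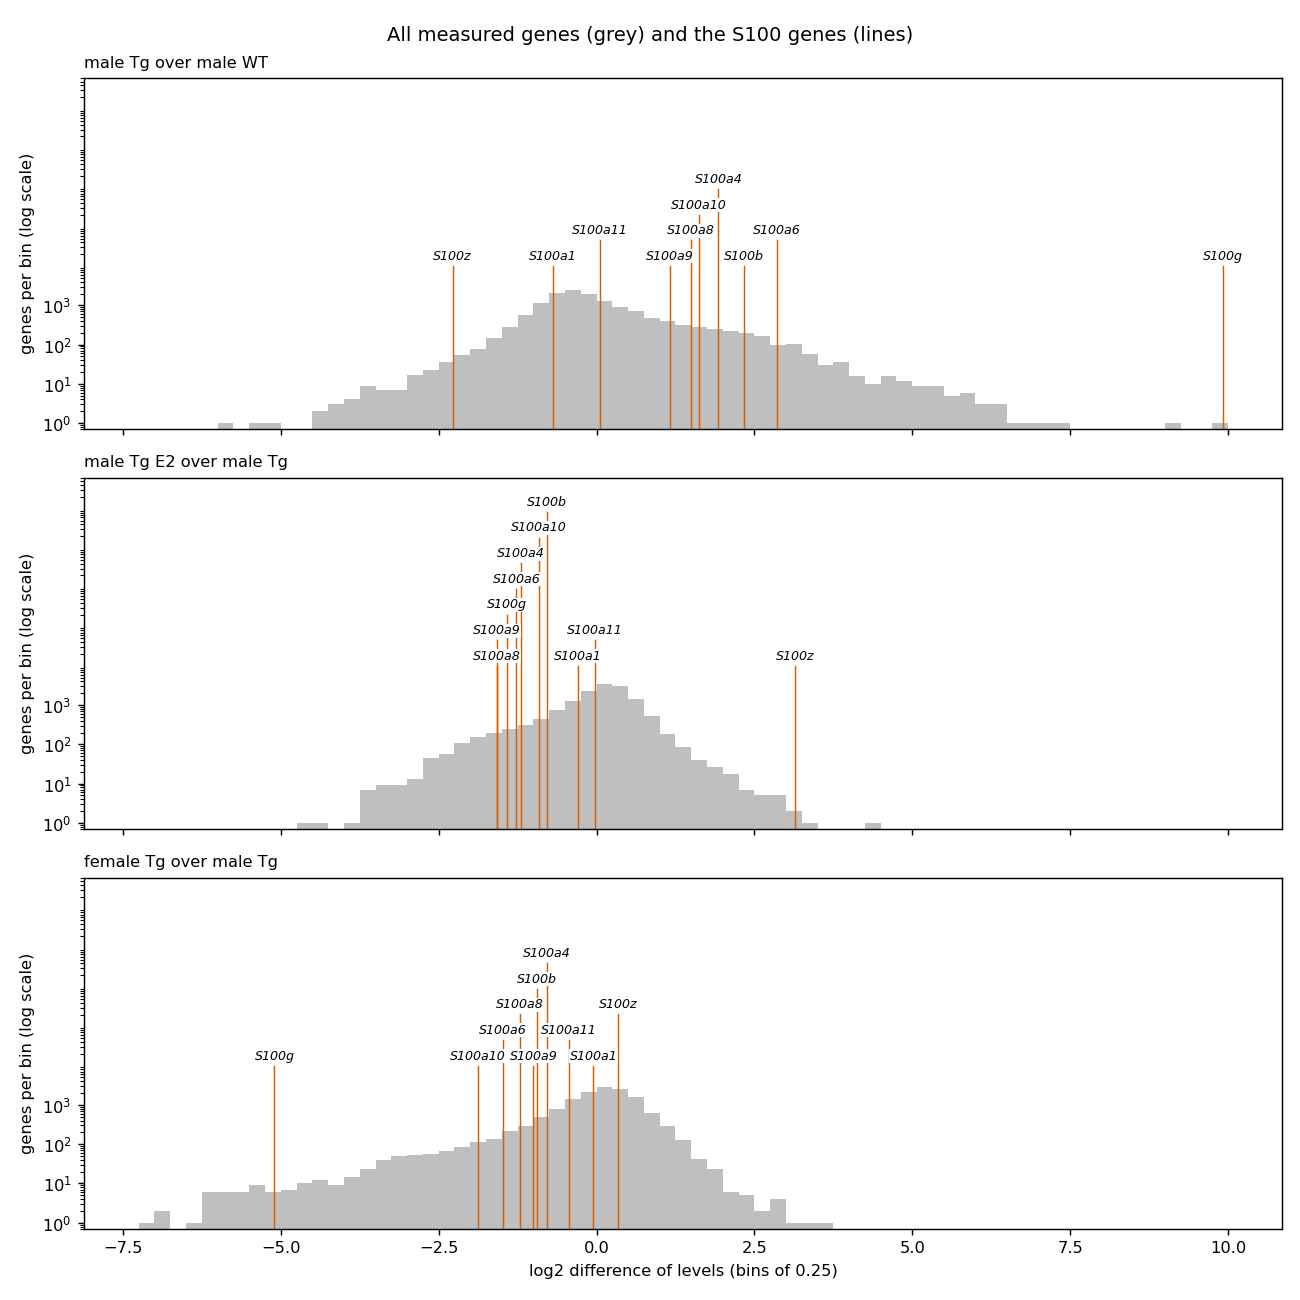
Number of measured genes (vertical axis, log scale) by log2 difference in bins of 0.25 (horizontal axis) for 3 comparisons of single arrays, with a line at each S100 gene. S100g lies at 9.92 in male Tg over male WT, beyond every other gene, and S100z at 3.14 in male Tg E2 over male Tg.

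Of the 10 members, 7 lie on chromosome 3, where RefSeq places 15 S100 genes of the array. In RefSeq's order along the chromosome, S100a4, S100a5, S100a6, S100a8 and S100a9 lie within one stretch, picked out after the values were seen, and every one of these was at least 2-fold higher on male Tg than on male WT and at least 2-fold lower on male Tg E2 than on male Tg. On one side of that stretch, S100a2 lies next to S100a4 and was well above background on male Tg E2 but not on male Tg, unlike the genes of the stretch. Further along that side, S100a14 shared the directions of the stretch by its bounds. S100a13 had them short of 2-fold, at 0.37 log2 in male Tg over male WT and −0.45 in male Tg E2 over male Tg. The probes for S100a16, also on that side, differed in sign in both comparisons. S100a3, known from hair, stood at −2.01 and 0.69 in these comparisons, and S100a1 at −0.69 and −0.29. On the other side, S100a10 stood at 1.62 and −0.91, and S100a11 at 0.05 and −0.02. S100a7a, inside the stretch, was above background on no array. Whether position plays a part was not tested.

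**Figure D4:**
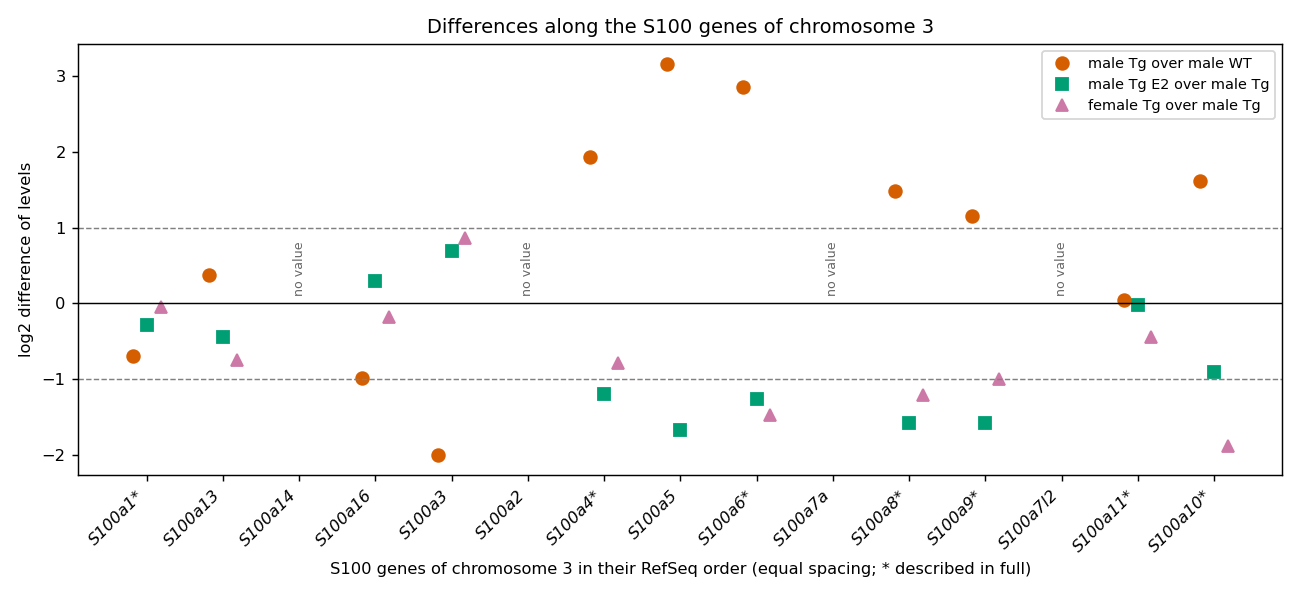
Log2 difference (vertical axis) of the 15 S100 genes of chromosome 3 in RefSeq order, drawn with equal spacing, in 3 comparisons of single arrays. Dashed lines mark 2-fold, a star marks the genes described in full, and genes without a point in a comparison were not well above background on both arrays. Male Tg over male WT runs from −2.01 for S100a3 to 3.17 for S100a5.

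The other S100 genes, together with S100pbp, which is not an S100 gene itself, were listed from general knowledge of the family. The median of this list did not share the shift of the members. Of these 9 genes on the array, 5 were measured in male Tg over male WT, of which 1 was higher and 1 lower. Their median was −0.27 log2 there, beside −0.21 for all genes. In male Tg E2 over male Tg it was 0.29, beside 0.12. Few genes enter these medians, and S100a16 enters through 1 of its probes, which differed in sign. S100a14, known by bounds only, is left out of them. S100a5 was the gene that was higher on male Tg than on male WT, at 3.17 log2. It differed by −1.68 log2 between male Tg E2 and male Tg, and it was at least 8.93-fold lower on female Tg than on male Tg, the same directions as its neighbour S100a6. S100a14, an epithelial member, was well above background on male Tg only, at least 6.46-fold higher than on male WT. It was at least 3.99-fold lower on male Tg E2 and at least 3.64-fold lower on female Tg than on male Tg. S100pbp, which encodes a binding partner of S100 proteins, stood at 1.04 log2 in female Tg over male Tg. S100a2 was above background on male Tg E2 alone, and S100a7a and S100a7l2 on no array.

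The probes for S100a16 did not give one answer. The probe with the higher mean level read −0.99 log2 in male Tg over male WT. Against male Tg it read 0.29 on male Tg E2 and −0.18 on female Tg. The other probe named for S100a16 read 2.63, −0.82 and −1.35 in the same comparisons. The S100a16 probes thus differed in sign in the first 2 comparisons, and no direction is given for this gene.

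Receptors of released S100 proteins were measured beside their ligands. Ager, which encodes RAGE, was not well above background on any array. Of the 5 receptor genes measured in male Tg over male WT, 2 were higher and 0 lower, beside 15.6% and 8.68% of all measured genes. The 2 were the scavenger receptor gene Cd36 (2.19 log2) and Tlr4 (1.13). On female Tg, Cd36 differed from male Tg by −1.82 log2 and Tlr4 was at least 2.45-fold lower. In male Tg E2 over male Tg none of the 5 passed 2-fold, with Cd36 at −0.67 and Tlr4 at −0.59.

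Annexins and AHNAK are membrane-binding proteins that S100 dimers join. Of 9 such genes measured in male Tg over male WT, 3 were higher and 0 lower, beside 15.6% and 8.68% of all measured genes. The 3 were Anxa1 (3.11 log2), Ahnak (2.16) and Anxa2 (1.80). Anxa2 and Ahnak, which meet S100a10 in one complex, both differed by −1.08 log2 between male Tg E2 and male Tg. Between female Tg and male Tg the differences were −1.75 for Anxa2 and −1.18 for Ahnak, and −1.88 for S100a10. The other 6 genes, Anxa3 to Anxa7 and Anxa11, stayed short of 2-fold in these comparisons.

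Among 10 intracellular targets of S100 proteins, 8 were measured in male Tg over male WT. Of these 1 was higher and 1 lower, beside 15.6% and 8.68% of all measured genes. Atp2a2, the calcium pump of the endoplasmic reticulum that S100a1 acts on in muscle, stood at −1.97 log2 in male Tg over male WT and at 1.40 in female Tg over male Tg. Ryr3, a calcium release channel gene, was 1.29 log2 higher on male Tg than on male WT.

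In absorbing epithelia S100g works with a calcium entry channel and with vitamin D signalling. Of 15 genes of epithelial calcium transport and vitamin D, 10 were measured in male Tg over male WT. There 2 were higher and 2 lower, beside 15.6% and 8.68% of all measured genes. Trpv6, the entry channel gene, was 3.05 log2 higher on male Tg than on male WT. It differed by −1.38 log2 between male Tg E2 and male Tg and was at least 7.93-fold lower on female Tg than on male Tg. Calb1, the larger calbindin, was 1.22 log2 higher on male Tg than on male WT. The vitamin D receptor gene Vdr stood at −1.15 and the calcium pump gene Atp2b2 at −1.07 in that comparison. Cyp24a1, the usual vitamin D target, was well above background on no array.

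Markers of other pancreatic cells moved with some members, and the islet hormone genes show that the arrays hold islet RNA, with all 8 well above background on every array. Of 14 acinar markers, 13 were at least 2-fold higher on male Tg than on male WT (median 4.36 log2), and 13 were lower on female Tg than on male Tg (median −4.16). In male Tg E2 over male Tg 3 were lower (median −0.69). The summed acinar level was 994 on female Tg, 7149 on male Tg E2, 11472 on male Tg and 912 on male WT. The order of the arrays is that of S100g. In female Tg over male WT, however, 0 of the 14 acinar markers were 2-fold apart in either direction (median 0.15), where S100g was 28.1-fold higher (4.81 log2). With normexp that S100g difference was 2.93 log2 with percentile scaling and 2.72 with quantile normalization. S100g was not alone in this. The 5 genes most like it, named below and chosen for that likeness, were also higher on female Tg than on male WT. The closest, 1810009J06Rik, had levels of 0.10 on female Tg and −2.82 on male WT.

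Stellate cell and matrix markers were higher on male Tg than on male WT in 9 of 10 measured cases (median 3.12 log2), with sums of 56.8 on female Tg, 134 on male Tg and 15.1 on male WT, and with male Tg E2 between the first 2 of these. In male Tg E2 over male Tg 1 of 11 was lower, with a median of −0.01, where S100a4 and S100a6 were more than 2-fold lower. In female Tg over male Tg 6 of 11 were lower and 0 higher (median −1.02), where S100a6 was at −1.48 and S100a4 at −0.79. Of 8 ductal markers measured in male Tg over male WT, 4 were higher and 1 lower. Of 7 measured in female Tg over male Tg, 4 were lower and 0 higher. Ductal sums were 122 on female Tg, 313 on male Tg E2, 459 on male Tg and 147 on male WT. Macrophage sums were 69.9, 73.3, 71.2 and 58.3 in the same order. Beta cell markers ran the other way, with 6 of 8 lower on male Tg than on male WT (median −1.94) and sums of 294, 288, 127 and 542. S100z was low on male Tg as they were, but on female Tg the beta cell sum was close to that of male Tg E2 and S100z was not. Acinar and other cells as a source of the S100 differences were not tested.

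**Figure D5:**
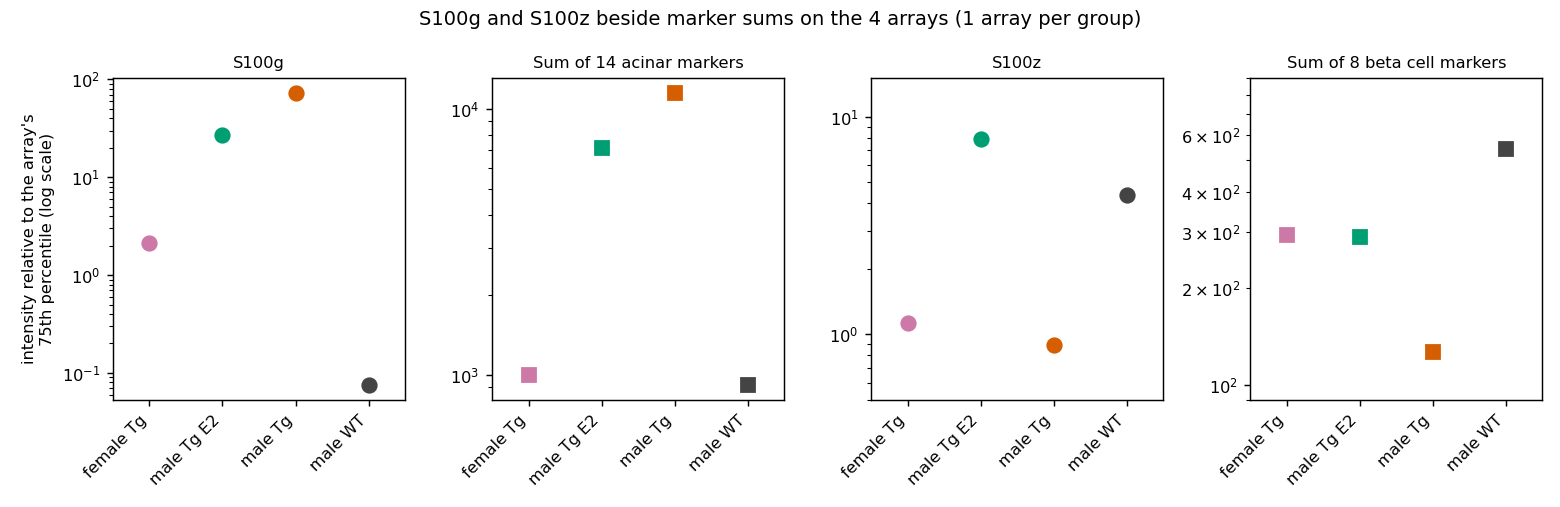
Intensity relative to the 75th percentile of each array (vertical axis, log scale) of S100g, of 14 summed acinar markers, of S100z and of 8 summed beta cell markers on the 4 arrays, 1 array per group. The acinar sum is 994 on female Tg and 912 on male WT, while S100g is 28.1-fold higher on female Tg than on male WT, a log2 difference of 4.81 that became 2.93 or 2.72 with normexp.

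The genes with the pattern most like S100g were sought among 13889 other genes well above background on all arrays, by the smallest distance between mean-centred log2 levels over the 4 arrays. They were 1810009J06Rik (distance 1.62), Reg3g (2.90), Itih4 (3.04), 2210010C04Rik (3.31) and Cckar (3.36). In male Tg over male WT 1810009J06Rik stood at 9.13 log2, and in male Tg E2 over male Tg at −0.49. In female Tg over male Tg the 5 genes stood at −6.21, −6.22, −6.07, −5.70 and −4.69 in the order named, where S100g was at −5.10. Their levels were 0.10, −0.86, −1.92, 1.51 and −1.80 on female Tg and −2.82, −1.89, −2.97, 0.83 and −2.82 on male WT. For S100z they were Mdm1 (0.50), Galnt18 (0.75), Cish (1.09), Uox (1.13) and Jhy (1.15). In male Tg over male WT Mdm1 stood at −2.41 and Galnt18 at −2.43, and in male Tg E2 over male Tg at 2.85 and 2.90. With 4 points per gene these are descriptions of the arrays.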

How the data were processed

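RNA of the 4 islet preparations was labelled with Cy3 and hybridised to one-colour Agilent arrays of 62976 spots, 59305 of them no controls. Per the file headers, the deposited scanner files give the intensity of each spot, linear and already background-corrected by the scanner software that the authors used. Its version is 10.7.1.1 per the file headers and 9.5.1.1 per the submitters' processing notes. The deposited flags for background, saturation and outliers are yes or no codes. The log2 intensities of the unflagged spots of a probe were averaged and reduced by the array's 75th percentile over probes. That percentile was 8.03 log2 on female Tg, 8.23 on male Tg E2, 7.66 on male Tg and 8.51 on male WT. The share of spots well above background ran from 49.9% to 54.8%, and 0 spots were saturated. Spots that repeat a probe on an array scattered with a standard deviation of 0.0657 to 0.0755 log2.

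Names come from RefSeq's gene table (GRCm38.p6), which placed 27235 probes by accession, 3581 by symbol and 565 by synonym, and left 24300 probes without an entry. Where a gene has several probes, the one with the highest mean over the arrays stands for it. Only probes well above background on both arrays of a comparison were measured. Where 1 array was not, the bright array was set against the higher of the dim probe's signal and the lowest signal well above background. Named genes are all members, the other S100 genes, up to 4 genes past 2-fold from each other list, taken by size, the 5 genes most like S100g and S100z, and markers given beside a result. The list of other EF-hand genes is an exception, with more than 4 genes named. Sox10, Csf3r and genes not above background were named after their values were seen. The members and lists were chosen with earlier results of these data known. The alternatives were other scalings, background modelling with normexp (limma 3.58.1, offset 50), the deposited series table of intensities, all probes of a gene, no background filter and other thresholds. The steps were tested on simulated data. Python 3.11.15, numpy 2.4.6, pandas 2.3.3 and R 4.3.3 were used.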

Additional observations from a re-analysis of the deposited data

How the results depend on the processing

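No paired analysis was possible because each group has 1 array and the labels give no replicate number. Under 9 alternatives the differences of single members gave 450 values, of which 0 reversed a called direction and 47 moved by more than 1 SE of the scanner error model. The counts of members past 2-fold that moved by over 1.5 times come first, and the cause was not tested except where the threshold itself sets it. In male Tg over male WT 1 lower member became 2 with median scaling and 2 at 1.5-fold, and 7 higher members became 3 at 4-fold. In male Tg E2 over male Tg 5 lower members became 0 at 4-fold. In female Tg over male Tg 5 lower members became 3 with normexp under either scaling and 1 at 4-fold. In male Tg E2 over male WT 0 lower members became 1 with median scaling and 1 at 1.5-fold, and 3 higher members became 6 at 1.5-fold and 1 at 4-fold. In female Tg over male WT 1 lower member became 2 at 1.5-fold and 0 at 4-fold, and 4 higher members became 1 at 4-fold. Counts that moved by 1.5 times or less were as follows. In male Tg over male WT 7 higher members became 6 with median scaling and with normexp under percentile scaling. The 5 lower members in male Tg E2 over male Tg became 6 after subtracting the median of all genes and 7 at 1.5-fold. In female Tg over male Tg 5 lower members became 4 with median scaling, 6 after subtracting that median and 7 at 1.5-fold. The 3 higher members in male Tg E2 over male WT became 2 with normexp and quantile normalization, and the 4 in female Tg over male WT became 3 with median scaling and with normexp under either scaling. S100g kept its direction and stayed past 2-fold throughout, between 7.47 and 10.12 log2 for male Tg over male WT, 6.20 and 8.61 for male Tg E2 over male WT, and 2.72 and 4.99 for female Tg over male WT. S100z stayed between 2.87 and 3.29 for male Tg E2 over male Tg. Median scaling shifts all genes, whose median in male Tg over male WT was −0.54 against −0.21. Of genes past 2-fold, the share that was higher was 37.5% with median scaling, 76.7% with the percentile over probes well above background, and 64.3% as reported. With median scaling the share was 38.1% (24.1% as reported) for male Tg E2 over male Tg, 43.5% (29.1%) for female Tg over male Tg, 61.3% (77.0%) for male Tg E2 over male WT and 51.0% (68.8%) for female Tg over male WT, where the percentile over probes well above background gave 80.6%. The low signal of S100g on the male WT array limits its fold.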

Other observations

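Other EF-hand genes, which share the calcium-binding loop but not the S100 fold, were listed from general knowledge, and 24 of 26 were measured in male Tg over male WT. Of these, 3 were higher and 3 lower, beside 15.6% and 8.68% of all measured genes. Their median was 0.01 log2, beside −0.21 for all genes. Cib3, which encodes a calcium and integrin binding protein, had a level of 2.84 on female Tg, 1.99 on male Tg E2, −0.78 on male Tg and 4.59 on male WT. Its difference was −5.37 log2 in male Tg over male WT, and against male Tg it was 2.77 on male Tg E2 and 3.62 on female Tg. The order of the transgenic arrays was thus not that of S100z, for which female Tg stood within error of male Tg. Vsnl1, a neuronal calcium sensor gene, stood at −2.28 and Cib2 at −1.23 in male Tg over male WT. Tesc (1.87), the secretory pathway gene Rcn3 (1.61) and the mitochondrial gene Efhd1 (1.23) were higher. In female Tg over male Tg Efhd2 stood at −1.04.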
